A study of Homo sapiens with 5 samples.

Results

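NORAD, TUG1, OIP5-AS1, KCNQ1OT1, FTX and CRNDE are 6 long noncoding RNAs, followed here in RNA recovered with the RNA-binding protein PSF from prostate cancer cells. They were chosen by name, as the rows of the deposited gene table that carry these symbols, and all 6 of 6 were found among 25702 genes. The choice was made with PSF-RIP over input in these libraries in view, so those ratios are given as a description without a test. RefSeq's current annotation classes 5 of them as long noncoding RNA and TUG1 as protein-coding, because short reading frames are now annotated in it.

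The cells were LTAD, a line labelled as human prostate cancer, kept without phenol red and in charcoal-treated serum, which is depleted of steroids. RNA bound to PSF was immunoprecipitated and sequenced (PSF-RIP), alongside input RNA. The 5 libraries were 2 of PSF-RIP from cells given 5 µM No.10-3, a small molecule known here by its code name alone, 1 of PSF-RIP from cells given the DMSO vehicle, and 2 of input RNA. The samples list 1 vehicle input and 1 No.10-3 input, but the names of the 2 input columns do not tell which is which. Both therefore served as a single reference and are called the input without a number and input 2. PSF, encoded by SFPQ, is a mostly nuclear protein that binds RNA and DNA and sits in paraspeckles with NONO. No library from a control antibody was analysed here. The labels do not say whether the No.10-3 replicates were separate cultures, so the p-values measure only the spread between these libraries, which may be technical.

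Long noncoding RNAs of this kind act as RNA and not through a long encoded protein. NORAD is an abundant, conserved RNA that is induced by DNA damage and helps to keep the genome stable. TUG1 is found in the nucleus and the cytoplasm and has been linked to Polycomb repression. OIP5-AS1, also called Cyrano, binds the RNA-stabilising protein HuR and in mouse directs decay of a microRNA. KCNQ1OT1 is transcribed antisense within KCNQ1 from the paternal chromosome and silences imprinted neighbours, FTX lies in the X-inactivation centre and carries microRNAs in its introns, and CRNDE is transcribed divergently from IRX5 and is raised in colorectal tumours.

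The deposited files hold no transcript sequence. The windows shown are the 250 bases before the RefSeq start (build GRCh38.p14) of NORAD and TUG1, which had the largest differences between No.10-3 and vehicle among the 6 RNAs. The window of NORAD is chr20:36050961-36051210 on the minus strand and that of TUG1 is chr22:30969015-30969264 on the plus strand. Both are written 5′ to 3′ along the gene, and capitals mark the E-box CACGTG.
NORAD: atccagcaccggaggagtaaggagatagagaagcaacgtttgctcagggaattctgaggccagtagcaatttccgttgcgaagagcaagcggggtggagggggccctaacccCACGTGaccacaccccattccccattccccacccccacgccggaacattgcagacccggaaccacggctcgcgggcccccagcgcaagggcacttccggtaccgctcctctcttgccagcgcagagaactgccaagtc
TUG1: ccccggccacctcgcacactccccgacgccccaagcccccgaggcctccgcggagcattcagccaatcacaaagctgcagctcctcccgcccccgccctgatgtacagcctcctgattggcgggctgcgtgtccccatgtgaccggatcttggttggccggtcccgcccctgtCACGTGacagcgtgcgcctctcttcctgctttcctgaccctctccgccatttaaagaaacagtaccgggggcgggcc

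The promoter table held 5 of the 6 RNAs. Read on both strands, CACGTG stood 1 time each in the windows of NORAD, TUG1 and OIP5-AS1 and was not found in those of FTX and CRNDE. Of all 35116 RefSeq promoter windows of this length, 6.34% held it. CCAAT stood 2 times in TUG1, 2 times in OIP5-AS1 and 1 time in CRNDE, against 32.0% of all windows with a match. The p53 half-site had no match in any of these 5 windows and was present in 5.57% of all windows. The matches describe the letters only.

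The libraries differed in what they held. Total counts were 1519362 and 3368252 in No.10-3 PSF-RIP, 2181770 in vehicle PSF-RIP, and 4010376 and 3083063 in input. The short RNAs RN7SK, RN7SL1, RN7SL2, RPPH1 and RMRP took 2.63% to 7.81% of counts in PSF-RIP but 51.7% and 55.0% in input, while nuclear protein-coding genes took 73.6% to 82.1% in PSF-RIP and 15.9% to 16.4% in input. Levels are given as CPM (counts relative to library size) scaled with edgeR's TMM factors, which align the bulk of genes, unless plain library totals are named. Markers of luminal prostate epithelium were above 0 in every library for 12 of 12 genes, with summed levels of 2050 to 2090 CPM in No.10-3 PSF-RIP, 1840 CPM in vehicle PSF-RIP and 2010 to 2120 CPM in input. Of 3 basal markers KRT5 and TP63 were at 0 in every library, as were PTPRC, CD3E and HBB of 4 blood markers, CDH5 of 3 endothelial, DCN of 6 stromal and CHGA among the neuroendocrine markers. Summed stromal markers stood at 46.9 to 48.1 CPM in No.10-3 PSF-RIP, 62.7 CPM in vehicle PSF-RIP and 26.7 to 27.7 CPM in input. Summed neuroendocrine markers stood at 50.1 to 52.9 CPM in No.10-3 PSF-RIP, 79.1 CPM in vehicle PSF-RIP and 37.3 to 38.2 CPM in input, and the part of either in the results was not tested. The basal, blood and endothelial sums were at most 8.14 CPM in any library.

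NORAD was the most abundant of the 6 RNAs per length, and its counts were the largest. Its level was 1313 CPM in replicate 1 and 1549 CPM in replicate 2 of No.10-3 PSF-RIP, 597 CPM in vehicle PSF-RIP, and 1526 and 1703 CPM in the inputs. The vehicle PSF-RIP library was thus the low library, and both No.10-3 libraries stood close to the inputs on this scale. The raw counts behind these levels were 3551 and 10727 with No.10-3, 2503 with vehicle and 2371 and 1915 in the inputs. As a share of all counts NORAD took 0.234% (95% Wilson interval 0.226 to 0.242%) and 0.318% (0.313 to 0.325%) in No.10-3 PSF-RIP, and 0.115% (0.110 to 0.119%) in vehicle PSF-RIP. It took 0.0591% and 0.0621% in the inputs. These intervals cover counting error only.

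TUG1, too, was lowest in vehicle PSF-RIP. It stood at 259 and 374 CPM in No.10-3 PSF-RIP, 149 CPM in vehicle PSF-RIP, and 435 and 405 CPM in the inputs, from 700, 2588, 624, 675 and 455 counts in that order. Here the No.10-3 libraries lay between vehicle PSF-RIP and input, with replicate 2 above replicate 1. The 2 inputs of NORAD differed by -0.16 log2 units and those of TUG1 by 0.10 (the input without a number minus input 2), so the input pair, which holds a library of each treatment, was close for both RNAs whichever column is which.

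OIP5-AS1, the HuR-binding RNA, was low in all PSF-RIP libraries. It had 17.4 and 24.3 CPM in No.10-3 PSF-RIP and 16.2 CPM in vehicle PSF-RIP, against 59.2 and 74.7 CPM in the inputs. CRNDE followed the same division, with 6.66 and 7.36 CPM in No.10-3 PSF-RIP and 9.06 CPM in vehicle PSF-RIP, against 27.0 and 23.1 CPM in the inputs. For both RNAs every PSF-RIP library lay below every input library on the TMM scale, as for 25.1% of all tested genes. The counts ranged from 47 to 168 for OIP5-AS1 and from 18 to 51 for CRNDE.

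KCNQ1OT1 and FTX had few counts and inputs more than 2-fold apart, which for FTX lay within counting error. KCNQ1OT1 had 28 and 76 counts in No.10-3 PSF-RIP, 56 in vehicle PSF-RIP, and 44 and 9 in the inputs, or 10.4, 11.0, 13.4, 28.3 and 8.0 CPM. FTX had 17 and 42 counts in No.10-3 PSF-RIP, 41 in vehicle PSF-RIP, and 14 and 3 in the inputs, or 6.29, 6.06, 9.77, 9.01 and 2.67 CPM. The input without a number stood at 3.54 times input 2 for KCNQ1OT1 (exact 95% interval for counting error 1.71 to 8.25) and at 3.38 times for FTX (0.943 to 18.3). Of all tested genes, 16.2% had inputs at least 2-fold apart. None of the 6 RNAs had No.10-3 replicates at least 2-fold apart, against 15.8% of all tested genes. The microRNAs carried by FTX were at or near the floor: MIR374A and MIR374B had 0 counts in every library, MIR421 had at most 3 and MIR545 at most 1.

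**Figure D1:**
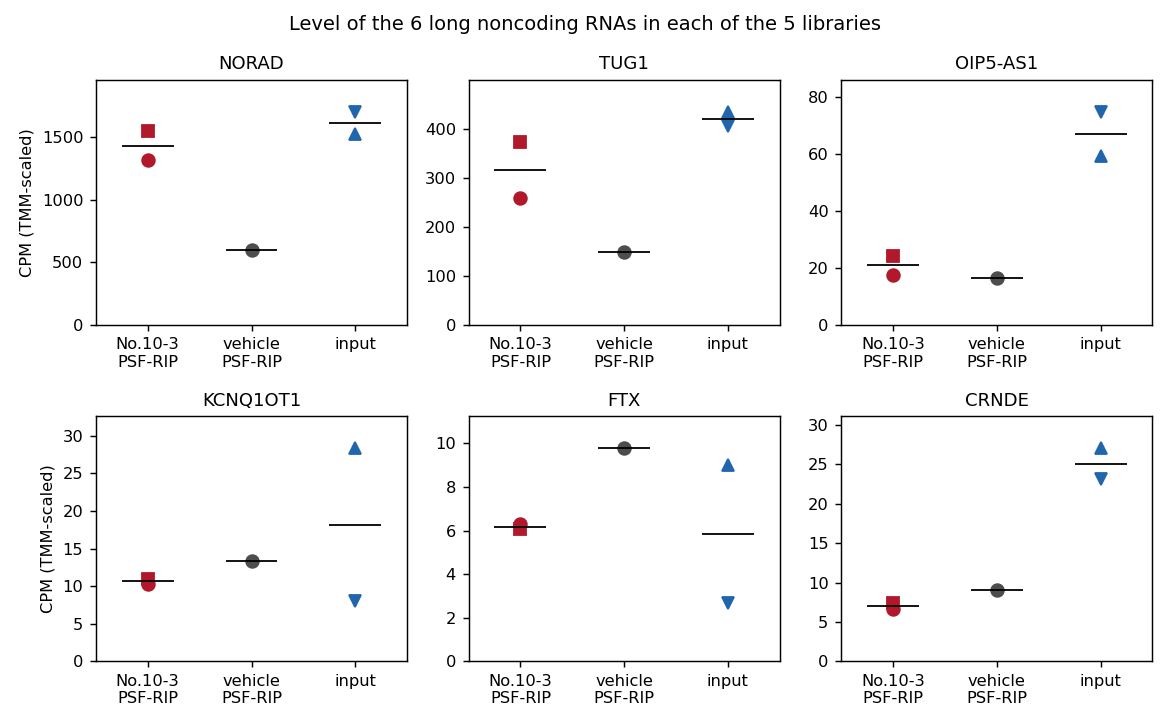
Level of each RNA (TMM-scaled CPM, linear axis from 0, a separate axis per RNA) in No.10-3 PSF-RIP (circle, replicate 1; square, replicate 2), vehicle PSF-RIP (circle) and input (up triangle, the input without a number; down triangle, input 2), with a line at the mean of each group. NORAD and TUG1 are lowest in vehicle PSF-RIP (597 and 149 CPM), whereas OIP5-AS1 and CRNDE are low in all 3 PSF-RIP libraries.

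Levels per kilobase of the gene length in the table allow the RNAs to be ordered against each other. In vehicle PSF-RIP the order was NORAD at 112 CPM per kb, TUG1 at 20.9, OIP5-AS1 at 8.56, CRNDE at 6.90, FTX at 4.15 and KCNQ1OT1 at 0.224. Both No.10-3 libraries had the same order, with NORAD at 246 and 290 CPM per kb and TUG1 at 36.4 and 52.6. In the inputs NORAD stood at 286 and 319, TUG1 at 61.2 and 56.9, OIP5-AS1 at 31.3 and 39.4 and CRNDE at 20.6 and 17.6 CPM per kb, again above FTX and KCNQ1OT1. The steps from NORAD to TUG1 and from TUG1 to OIP5-AS1 exceeded the spread between libraries of a group, while OIP5-AS1 and CRNDE were close neighbours in vehicle PSF-RIP. KCNQ1OT1 is listed with a length of 59461 nt, so its level per kb averages over a very long RNA. Among all tested genes ranked by level per kb in vehicle PSF-RIP, NORAD was at percentile 98.0, TUG1 at 85.7 and KCNQ1OT1 at 2.15.

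With No.10-3, PSF-RIP held more NORAD and TUG1 than with vehicle in both treated libraries, but none of the 6 RNAs passed the test. The comparison addresses, by the title of the series, whether treatment with the compound modulates RNA binding by PSF. NORAD averaged 1431 ± 166 CPM with No.10-3 (SD, n = 2) and 597 CPM with vehicle, 2.40-fold more, or 1.26 ± 0.59 (SE) on the log2 scale, with an adjusted p = 0.783 by edgeR's quasi-likelihood test with Benjamini-Hochberg adjustment. TUG1 averaged 316 ± 81.2 CPM with No.10-3 and 149 CPM with vehicle, 2.13-fold more, or 1.09 ± 0.53 (SE) on the log2 scale, with an adjusted p = 0.785 by edgeR. For each of these RNAs both No.10-3 libraries were above vehicle, as for 33.3% of all tested genes. On the log2 scale the nearer No.10-3 library stood farther from vehicle than the No.10-3 pair stood from each other. The same was true, below vehicle, of KCNQ1OT1, FTX and CRNDE, and the share of all genes with this trait was not counted. For KCNQ1OT1 and CRNDE, however, counting error alone could span the difference from vehicle. Their exact counting intervals for the ratio to vehicle were 0.475 to 1.24 and 0.395 to 1.32 in replicate 1. In replicate 2 they were 0.575 to 1.18 and 0.524 to 1.27. FTX had 0.343 to 1.16 and 0.394 to 0.978, so only its replicate 2 lay below vehicle beyond counting error.

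By counting error alone the ratios of NORAD and TUG1 to vehicle were well away from 1. NORAD was 2.2 times vehicle in replicate 1 (exact 95% interval 2.09 to 2.32) and 2.60 times in replicate 2 (2.49 to 2.71), and TUG1 was 1.74 times (1.56 to 1.94) and 2.51 times (2.30 to 2.75). These intervals compare single libraries and leave out the spread between samples. The same holds between the No.10-3 replicates, where TUG1 was 1.44 times higher in replicate 2 than in replicate 1 (1.33 to 1.57) and NORAD 1.18 times (1.14 to 1.23).

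edgeR called 0 of 13321 tested genes between No.10-3 and vehicle, a background of 0%, and the lowest adjusted p among them was 0.504. Without adjustment 846 genes had a p under 0.05 with edgeR. DESeq2 likewise called 0 genes, and 273 had such a p before adjustment. NORAD (unadjusted p = 0.0379 by edgeR) and TUG1 (0.0480) were among the 4.05% of genes that were higher at that level. They were also the 2 of 6 RNAs with a fold of at least 2, against 7.90% of all tested genes. In the ranking of all tested genes by log2 change NORAD stood at percentile 95.7 and TUG1 at 93.4. The test had little power at such sizes. In simulated data it called 1 of 50 genes with a log2 change of 1 and 13 of 50 with 2.

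The other 4 RNAs had smaller differences from vehicle, and none passed the test. OIP5-AS1 had a log2 change of 0.38 (SE 0.49), KCNQ1OT1 -0.32 (SE 0.57), CRNDE -0.36 (SE 0.55) and FTX -0.66 (SE 0.60), with adjusted p of 0.897 to 0.944 by edgeR. FTX averaged 6.18 ± 0.158 CPM with No.10-3 (SD, n = 2) and 9.77 CPM with vehicle, and its exact counting interval against vehicle ran from 0.343 to 1.16 in replicate 1 and from 0.394 to 0.978 in replicate 2. In all, 3 RNAs (NORAD, TUG1 and OIP5-AS1) had both No.10-3 libraries above vehicle, and 3 (KCNQ1OT1, FTX and CRNDE) had both below. Of all tested genes 33.3% had both above and 32.4% both below. Both replicates are set against the same vehicle library.

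**Figure D2:**
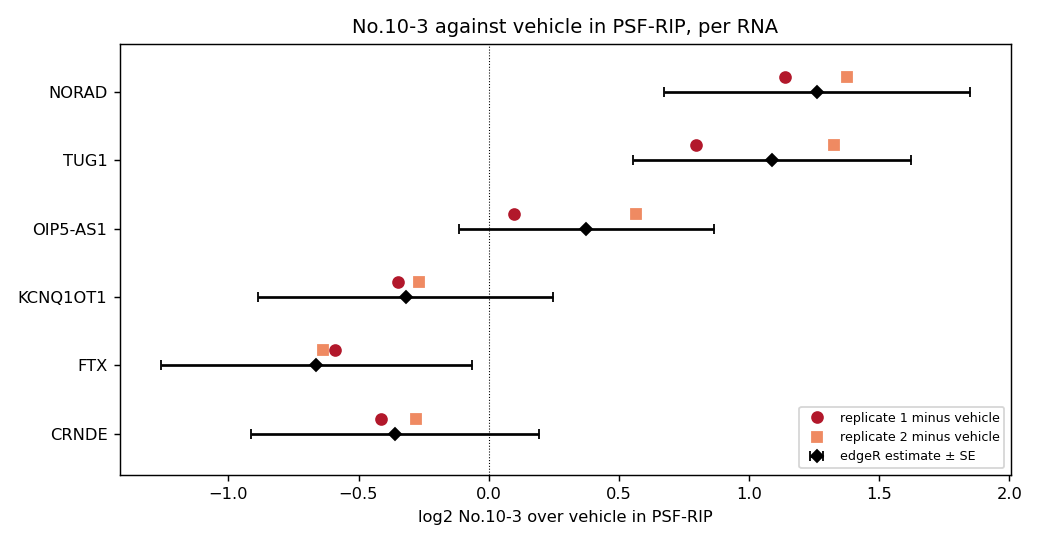
Log2 ratio of No.10-3 over vehicle in PSF-RIP for each RNA: the edgeR estimate with its SE (diamond and bar) and, above it, each No.10-3 library minus the vehicle library (circle, replicate 1; square, replicate 2). NORAD (1.26) and TUG1 (1.09) lie to the right of 0 by more than their SE, and the remaining 4 lie within -0.66 to 0.38.

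Other measures moved with the difference in NORAD and TUG1. Over the 13321 tested genes, log2 CPM in No.10-3 PSF-RIP correlated with the inputs at Pearson's r of 0.804 and 0.819 in replicate 1 and 0.845 and 0.871 in replicate 2, and vehicle PSF-RIP at 0.760 and 0.805; genes are not independent replicates, so these are descriptions. Replicate 2 was nearer to both inputs than vehicle PSF-RIP was, and replicate 1 by a narrower margin. The part of this in the difference of NORAD and TUG1 was not tested. Recovery with PSF and the amount of an RNA in the cells cannot be told apart within PSF-RIP alone, nor, in bulk samples, fewer cells of a type and less RNA per cell.

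PSF-RIP over input is the contrast that was in view when the RNAs were chosen. Its sign depended on the scaling. Scaled to library totals, the median of all tested genes was 2.38 log2 units higher in PSF-RIP than in input, and all 6 RNAs were above both inputs in all 3 PSF-RIP libraries, as were 88.7% of all tested genes. With TMM the median of all genes was 0.05. On that scale 3 of the 6 RNAs (TUG1, OIP5-AS1 and CRNDE) were below both inputs in all 3 PSF-RIP libraries, against 25.1% of all tested genes, and none was above both in all 3, against 30.1%.

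A change of scaling shifts all genes nearly alike, so ratios set against the median gene stay nearly the same by construction. On the TMM scale the log2 ratio of PSF-RIP over input was -0.81 for NORAD (0.57-fold), -0.95 for TUG1 (0.52-fold), -1.85 for OIP5-AS1 (0.28-fold), -1.65 for CRNDE (0.32-fold), -0.65 for KCNQ1OT1 (0.64-fold) and 0.34 for FTX (1.26-fold). On library totals they were 1.56, 1.41, 0.51, 0.70, 1.69 and 2.67 in the same sequence. Relative to the median of all genes, NORAD stood at -0.85 with TMM and -0.83 with library totals, OIP5-AS1 at -1.90 and -1.87, and FTX at 0.29 and 0.28. The order of the RNAs on this measure put OIP5-AS1 and CRNDE lowest, with percentiles of 5.34 and 7.46 among all tested genes, then TUG1 at 20.2, NORAD at 23.9, KCNQ1OT1 at 28.5 and FTX at 59.5. OIP5-AS1 and CRNDE differed by less than their SEs of 0.371 and 0.428, and TUG1, NORAD and KCNQ1OT1 by less than their SEs of 0.388 to 0.458.

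For NORAD and TUG1 the distance to input differed between the treatments. NORAD stood at -0.18 log2 units against the mean of the inputs in No.10-3 PSF-RIP and at -1.43 in vehicle PSF-RIP, and TUG1 at -0.43 and -1.49. OIP5-AS1 stood at -1.67 in No.10-3 PSF-RIP and -2.00 in vehicle PSF-RIP, and CRNDE at -1.75 and -1.41. These pairs restate the comparison of No.10-3 with vehicle, since both values of a pair use the same inputs. KCNQ1OT1 changed sign without the input that has no number, to 0.58, and FTX without input 2, to -0.22, so neither has a settled sign. The vehicle library also set the size for NORAD and TUG1: without it their log2 ratios of PSF-RIP over input were -0.17 and -0.41, FTX stood at 0.0059, and KCNQ1OT1 at -0.80 lay below both. With all 3 PSF-RIP libraries as 1 group, NORAD stood at -0.49.

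**Figure D3:**
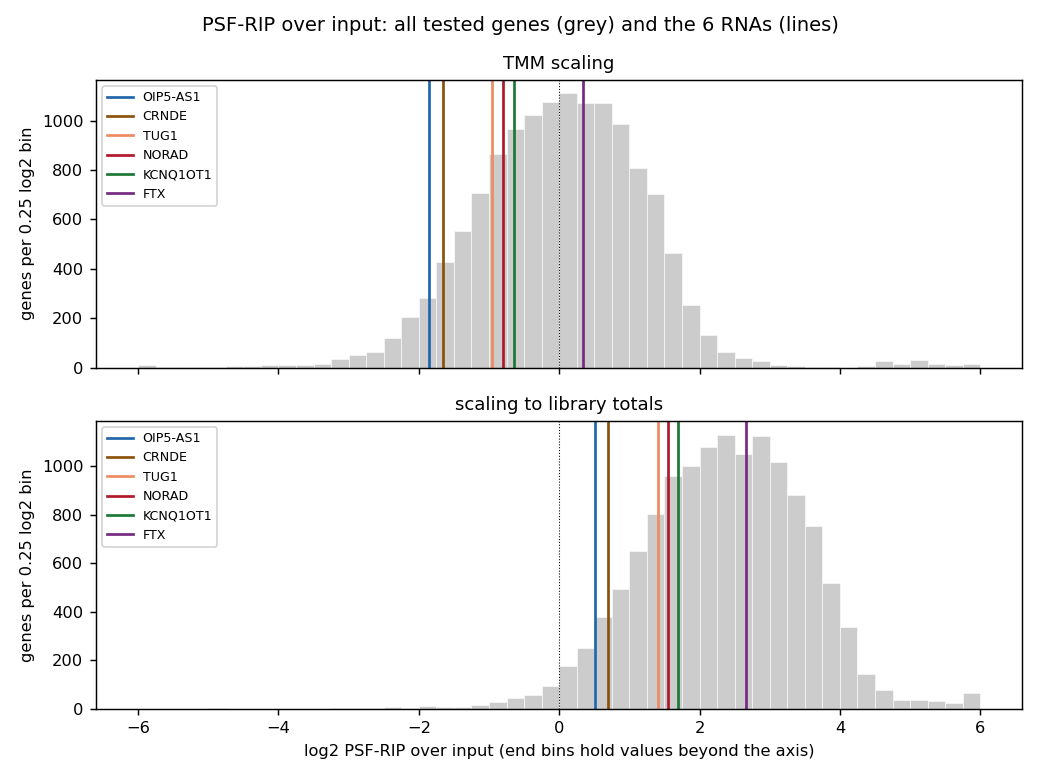
Number of tested genes (grey bars, per 0.25 log2 bin) by log2 ratio of PSF-RIP over input with TMM scaling (top) and with scaling to library totals (bottom), with a coloured line for each of the 6 RNAs and a dotted line at 0. The whole distribution moves from a median of 0.05 (top) to 2.38 (bottom). The lines move with it by construction, with OIP5-AS1 and CRNDE in its lower part.

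The libraries also differed by gene length, so the RNAs were set beside genes of like length. Genes of 4 to 8 kb had a median log2 ratio of PSF-RIP over input of 0.11 (quartiles -0.65 and 0.89), and NORAD (5343 nt) and TUG1 (7105 nt) lay below the lower quartile. OIP5-AS1 (1894 nt) and CRNDE (1313 nt) lay below the lower quartile of genes of 1 to 2 kb, which was -0.81. KCNQ1OT1 (-0.65) lay just below the lower quartile of genes over 8 kb (-0.62), and FTX (2356 nt) lay within the quartiles of its class. For No.10-3 over vehicle, genes of 4 to 8 kb had a median of 0.09 (quartiles -0.32 and 0.53), and NORAD and TUG1 lay above the upper quartile. KCNQ1OT1 (-0.32) and FTX (-0.66) lay below the lower quartiles of their classes, -0.19 and -0.39. OIP5-AS1 and CRNDE lay within the quartiles of theirs. Between the No.10-3 libraries, the median difference of replicate 2 minus replicate 1 was -0.51 for genes under 1 kb, 0.23 for genes of 4 to 8 kb and 0.37 for longer genes. NORAD at 0.24 was close to its length class on that measure and TUG1 at 0.53 was above it.

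**Figure D4:**
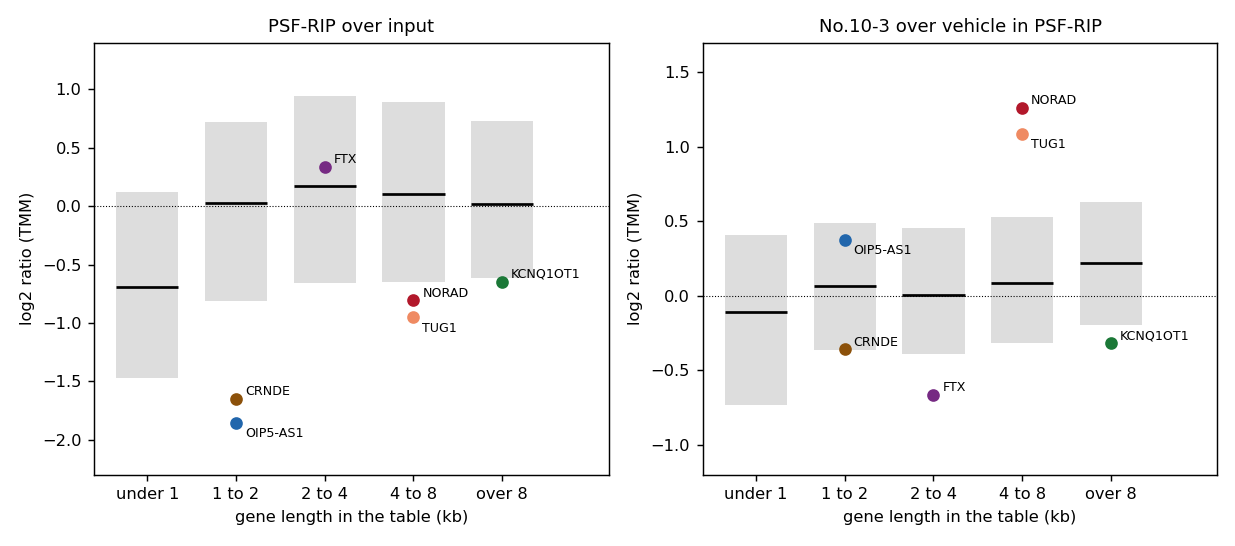
Log2 ratio of PSF-RIP over input (left) and of No.10-3 over vehicle in PSF-RIP (right), both on the TMM scale, by gene length: grey boxes span the quartiles of all tested genes of a length class, black lines are medians and coloured points are the 6 RNAs. NORAD and TUG1 lie below the box of their class on the left and above it on the right. OIP5-AS1, CRNDE and KCNQ1OT1 also lie below their boxes on the left, and KCNQ1OT1 and FTX lie below theirs on the right.

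NORAD and TUG1 had similar profiles over the 5 libraries. Likeness was measured as the Euclidean distance between log2 CPM values centred on each gene's own mean, over the 8393 genes that averaged 10 CPM or more. The distance of TUG1 from NORAD was 0.380, against a median distance of all genes from NORAD of 1.59, but 48 genes were nearer. The 3 nearest to NORAD were GM2A (0.167), ZNF664 (0.195) and ZNF623 (0.200), and the 3 nearest to TUG1 were DOK6 (0.112), MXI1 (0.130) and ENOPH1 (0.132). ZNF664 had 196 and 250 CPM in No.10-3 PSF-RIP, 84.4 CPM in vehicle PSF-RIP and 214 and 275 CPM in the inputs. GM2A, an activator protein of ganglioside breakdown, had 39.2 and 40.7 CPM in No.10-3 PSF-RIP, 17.9 in vehicle PSF-RIP and 45.1 and 48.9 in the inputs. MXI1, a MAX-binding repressor, had 23.3 and 34.8 CPM in No.10-3 PSF-RIP, 14.8 in vehicle PSF-RIP and 43.1 and 39.1 in the inputs. Among the 6 RNAs, OIP5-AS1 and CRNDE (0.732) and KCNQ1OT1 and FTX (0.989) were the next closest pairs, and OIP5-AS1 and FTX the farthest apart (2.93).

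Genes beside the 6 RNAs had orders of their own. MORC2, which encodes a chromatin-silencing ATPase and is the head-to-head neighbour of TUG1, had 48.8 and 49.96 CPM in No.10-3 PSF-RIP, 69.6 CPM in vehicle PSF-RIP and 32.8 and 19.6 CPM in the inputs. Its levels in PSF-RIP were thus above both inputs on the TMM scale, as for 30.1% of all tested genes. They were highest with vehicle, where TUG1 was lowest. KCNQ1, the potassium channel gene that contains KCNQ1OT1, had 32 and 25 counts in No.10-3 PSF-RIP, 27 in vehicle PSF-RIP and 2 in each input, whereas KCNQ1OT1 had 44 and 9 in the inputs. OIP5, the centromere gene on the other strand from OIP5-AS1, had only 5 to 12 counts per library. IRX5, a homeobox gene next to CRNDE, had 3.33 and 3.61 CPM in No.10-3 PSF-RIP, 4.53 CPM in vehicle PSF-RIP and 3.86 and 5.33 CPM in the inputs. The strand setting of the counting is not given in the sources used here, so reads of KCNQ1 and KCNQ1OT1, of OIP5 and OIP5-AS1, and of the overlapping JPX and FTX cannot be told apart with certainty.

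Of the 15 neighbours and sense partners 14 were tested, and edgeR called 0 between No.10-3 and vehicle, with 7 above vehicle in both No.10-3 libraries and 6 below in both, and a median log2 change of 0.15 against 0.04 for all tested genes. NUSAP1, a spindle protein near OIP5, was the lowest, with 25.9 and 31.9 CPM with No.10-3 and 67.2 CPM with vehicle (-1.21 ± 0.46 on the log2 scale, SE; edgeR adjusted p = 0.783). RLIM and CHIC1, coding genes of the X-inactivation centre, had log2 ratios of PSF-RIP over input of -1.58 and -1.61, while FTX stood at 0.34. The imprinted genes PHLDA2 and SLC22A18 near KCNQ1OT1 stood at 1.21 and 1.7, on 1 to 5 counts in the inputs, and IRX3, another homeobox gene near CRNDE, at 1.38.

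Other well-known long noncoding RNAs gave a background for the 6. Of 31 on the list 6 had no count in any library and 20 were tested, with edgeR calling 0 between No.10-3 and vehicle. Their median log2 change with No.10-3 was -0.13, against 0.03 for the 6 RNAs and 0.04 for all tested genes, with 5 above vehicle in both No.10-3 libraries and 8 below in both. FGD5-AS1 had 92.8 and 98.8 CPM with No.10-3 and 58.2 CPM with vehicle, and LINC-PINT had 9.99 and 12.7 CPM with No.10-3 and 23.6 CPM with vehicle (-1.04 ± 0.50 on the log2 scale, SE; edgeR adjusted p = 0.783). NEAT1, the paraspeckle scaffold, had 549 and 951 CPM with No.10-3 and 512 CPM with vehicle. Like NORAD it was above vehicle in both replicates, but its replicate 1 was only 0.099 log2 units above, against 1.14 for NORAD.

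In PSF-RIP over input, described only, the 20 tested long noncoding RNAs had a median log2 ratio of -0.74 and all 547 tested genes of the RefSeq long noncoding class a median of -0.65, against -0.88 for the 6 RNAs and 0.05 for all tested genes. On the TMM scale, 14 of the 20 and 232 of the 547 were below both inputs in all 3 PSF-RIP libraries, as were 3 of the 6 and 25.1% of all tested genes. The medians of these noncoding groups were thus all below the median gene, while FTX among the 6 stood above it. FGD5-AS1 (-1.77), DANCR (-1.76) and OIP5-AS1 (-1.85) had nearly the same ratio, and CASC2 (-2.94), NEAT1 (-1.24), ZFAS1 (-1.25), DLEU1 (-1.21) and HAGLR (-1.15) were the others on the list at least 2-fold from input.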

How the data were processed

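The authors deposited 1 table of raw counts per gene and library with gene lengths, per the file headers. Its 5 FPKM columns were not used. The submitters' processing notes name TopHat2 2.1.0, Bowtie2 2.2.6, Bowtie and hg19. The sources used here give no counting tool, annotation or strand setting. Columns named for the compound were taken as No.10-3 PSF-RIP, since both input samples have columns named input.

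Of 25702 genes, 13321 that averaged 1 CPM or more over the 5 libraries were tested. edgeR 4.0.16 (R 4.3.3) fitted 3 groups with TMM factors, leaving 2 residual degrees of freedom, with a Benjamini-Hochberg threshold of 0.05. The input pair mixes treatments and adds to the spread. An SE is the log2 change divided by the root of the F statistic. Log2 values per library used a prior count of 2. Alternatives were DESeq2 1.42.0, other scalings and filters, and left-out libraries. In data simulated for No.10-3 over vehicle, the fit called 1 of 50 genes with a log2 change of 1 and 13 of 50 with 2. It called 47 of 50 with 3, 50 of 50 with 4, and 0 unchanged genes. Biotypes came from RefSeq (GRCh38.p14), matched by Entrez ID for 23696 genes. Counts of the No.10-3 pair and of the inputs differed beyond sampling noise. For the No.10-3 pair this does not tell separate cultures from technical repeats.

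The 6 RNAs and all gene lists were chosen with earlier results of these data known. Genes named were the 6 RNAs, the 3 nearest in profile to NORAD and to TUG1, and listed genes that are sense partners or at least 2-fold apart in either comparison. IRX5, PUM2, ELAVL1, EZH2, SUZ12 and EED were chosen from the lists after their values were seen. Values of some listed genes are not reported here.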

Additional observations from a re-analysis of the deposited data

How the results depend on the processing

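In 9 alternatives the log2 change of each of the 6 RNAs with No.10-3 kept its direction, from 1.14 to 1.36 for NORAD, 0.80 to 1.31 for TUG1, 0.10 to 0.57 for OIP5-AS1, -0.38 to -0.30 for KCNQ1OT1, -0.72 to -0.63 for FTX and -0.44 to -0.31 for CRNDE. Leaving out a No.10-3 library removes the spread between the pair, so that the input pair alone sets it and the lone libraries are assumed to vary like the inputs. Then NORAD passed by edgeR without replicate 1 (adjusted p = 0.000114) and without replicate 2 (0.0423), and TUG1 without replicate 1 (0.00417) but not without replicate 2 (0.480), against adjusted p of 0.761 to 1 for both in the other alternatives. Genes called between No.10-3 and vehicle numbered 26 to 872 in those fits, 9 with no filter on low counts, all lower, and 0 otherwise.

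Library totals reversed PSF-RIP over input for NORAD (1.56), TUG1 (1.41), OIP5-AS1 (0.51), KCNQ1OT1 (1.69) and CRNDE (0.70), with 11277 genes called (11223 higher and 54 lower) in place of 3413 (1596 and 1817). DESeq2 called 2252. Totals of nuclear protein-coding genes, a scaling chosen after seeing the data, called 1814 higher and 1511 lower, and kept the sign of all 6. Leaving out a library gave 639 to 5549 calls; without input 2 there were 639, without the other input 1183, without vehicle PSF-RIP 1507 and without No.10-3 replicate 2 5549. KCNQ1OT1 reversed to 0.58 without the input that has no number and was -1.24 without input 2, and FTX reversed to -0.22 without input 2 and was 1.53 without the other. Without vehicle PSF-RIP, NORAD was -0.17, TUG1 -0.41 and FTX 0.0059. No paired analysis was possible because the labels number only 1 No.10-3 library, vehicle PSF-RIP has 1 library, and the input columns cannot be tied to a treatment. Depth limits FTX, KCNQ1OT1 and CRNDE most, with 3 to 76 counts per library.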

Other observations

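The mRNAs of proteins known to bind these RNAs or to be recruited by them were followed as a list of 14, all tested, with edgeR calling 0 between No.10-3 and vehicle in PSF-RIP and a median log2 change of 0.06. PUM2, which encodes an RNA-binding repressor, had 58.1 and 91.0 CPM in No.10-3 PSF-RIP, 45.8 CPM in vehicle PSF-RIP and 97.9 and 133 CPM in the inputs, an order like that of TUG1. ELAVL1, which encodes HuR, the partner of OIP5-AS1, had 40.3 and 38.0 CPM with No.10-3 and 19.8 CPM with vehicle (0.98 ± 0.49 on the log2 scale, SE; edgeR adjusted p = 0.788), and 32.2 and 33.8 CPM in the inputs.

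Of the 5 genes for chromatin modifiers on the same list, EHMT2 and DNMT1 were above input and the Polycomb genes EZH2, SUZ12 and EED were mixed. EHMT2, a histone methyltransferase recruited by the mouse Kcnq1ot1, had 47.7 and 28.0 CPM in No.10-3 PSF-RIP, 43.6 CPM in vehicle PSF-RIP and 5.15 and 8.89 CPM in the inputs. DNMT1, the maintenance DNA methyltransferase, had 43.3 and 43.5 CPM in No.10-3 PSF-RIP, 69.1 CPM in vehicle PSF-RIP and 18.7 and 8.89 CPM in the inputs. All 3 PSF-RIP libraries were above both inputs for EHMT2 and DNMT1 on the TMM scale, as for 30.1% of all tested genes. Of the 14 genes on the list, 4 were above both inputs in this way and 3 were below both. EZH2 had 8.51 and 16.3 CPM in No.10-3 PSF-RIP, 16.7 CPM in vehicle PSF-RIP and 14.2 and 10.7 CPM in the inputs, so its groups overlapped. The log2 ratio of PSF-RIP over input was 0.22 for EZH2, -0.30 for SUZ12 and 0.35 for EED. The splicing factor PRPF19 (1.25) and the export factor ALYREF (1.30) were the others on the list with a log2 ratio of PSF-RIP over input beyond 1.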
